A study of Homo sapiens with 12 samples.

Results

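The APOBEC3 genes encode cytidine deaminases, and their transcripts were followed in U2OS cells, a human osteosarcoma line described in the labels as expressing its own wild-type p53. The members were APOBEC3A, APOBEC3B, APOBEC3C, APOBEC3F, APOBEC3G and APOBEC3H, and their probe sets were chosen as those that the platform annotation pairs with exactly 1 gene. This gave 6 probe sets of 54675 on the Affymetrix Human Genome U133 Plus 2.0 array, for 4 genes: 1 each for APOBEC3B and APOBEC3C, and several for APOBEC3F and APOBEC3G. A further 2 probe sets were paired with several genes, and 1 of them is the only one that names APOBEC3A. APOBEC3H was paired with no probe set in the annotation used and was not analysed here.

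There were 12 arrays, 3 in each of 4 groups, all of U2OS cells after 24 hours. One group was left untreated, and one received 0.6 µg/ml doxorubicin, which poisons topoisomerase II and so breaks DNA. One received 0.1% DMSO, the solvent, and one 10 µM nutlin-3, which keeps MDM2 from binding p53. Doxorubicin was compared with untreated cells and nutlin-3 with DMSO. The labels do not say whether the 3 arrays of a group came from separate cultures, so the p-values speak only to how far these samples spread, and that spread may be technical. In such bulk RNA, fewer cells with a transcript and less of it per cell cannot be told apart.

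APOBEC3 enzymes turn cytosine into uracil in single-stranded DNA, and the family is known as an innate barrier to retroviruses and retrotransposons. APOBEC3A, APOBEC3C and APOBEC3H carry a single deaminase domain, while APOBEC3B, APOBEC3D, APOBEC3F and APOBEC3G carry a tandem pair. APOBEC3B is the mainly nuclear member and, with APOBEC3A, is known as a source of mutations in tumours, and family members have been described as under the control of p53. The genes lie side by side on chromosome 22, in the order A, B, C, D, F, G, H, and their sequences are so alike that a probe set can bind the transcript of a neighbour. Affymetrix ends the name of a probe set with _s_at where its probes match several transcripts, and with _x_at where some probes may also bind unrelated ones. APOBEC3B (206632_s_at) and APOBEC3C (209584_x_at) were read by such probe sets, so their values are uncertain to that extent. The same holds for 243912_x_at, which represents APOBEC3F in the gene fit. It holds as well for both probe sets paired with several genes, 210873_x_at and 214995_s_at.

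The 4 genes with a probe set of their own differed in which agent their calls came with. With doxorubicin APOBEC3B, APOBEC3C and APOBEC3G rose, 3 of 4, where 55.7% of the 13673 genes tested were called and 30.1% rose. With nutlin-3 APOBEC3C rose and APOBEC3B fell, 2 of 4, where 26.4% of genes were called, 12.5% rising and 13.9% falling. The median log2 change of the 4 was 0.88 with doxorubicin and 0.34 with nutlin-3, and over all genes it was 0.08 and 0.01. Calls needed an adjusted p under 0.05 from limma, by the Benjamini-Hochberg method over all genes tested. Log2 changes are on the scale log2(signal + 16), which understates the changes of dim probe sets, and each is given with its standard error (SE).

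**Figure D1:**
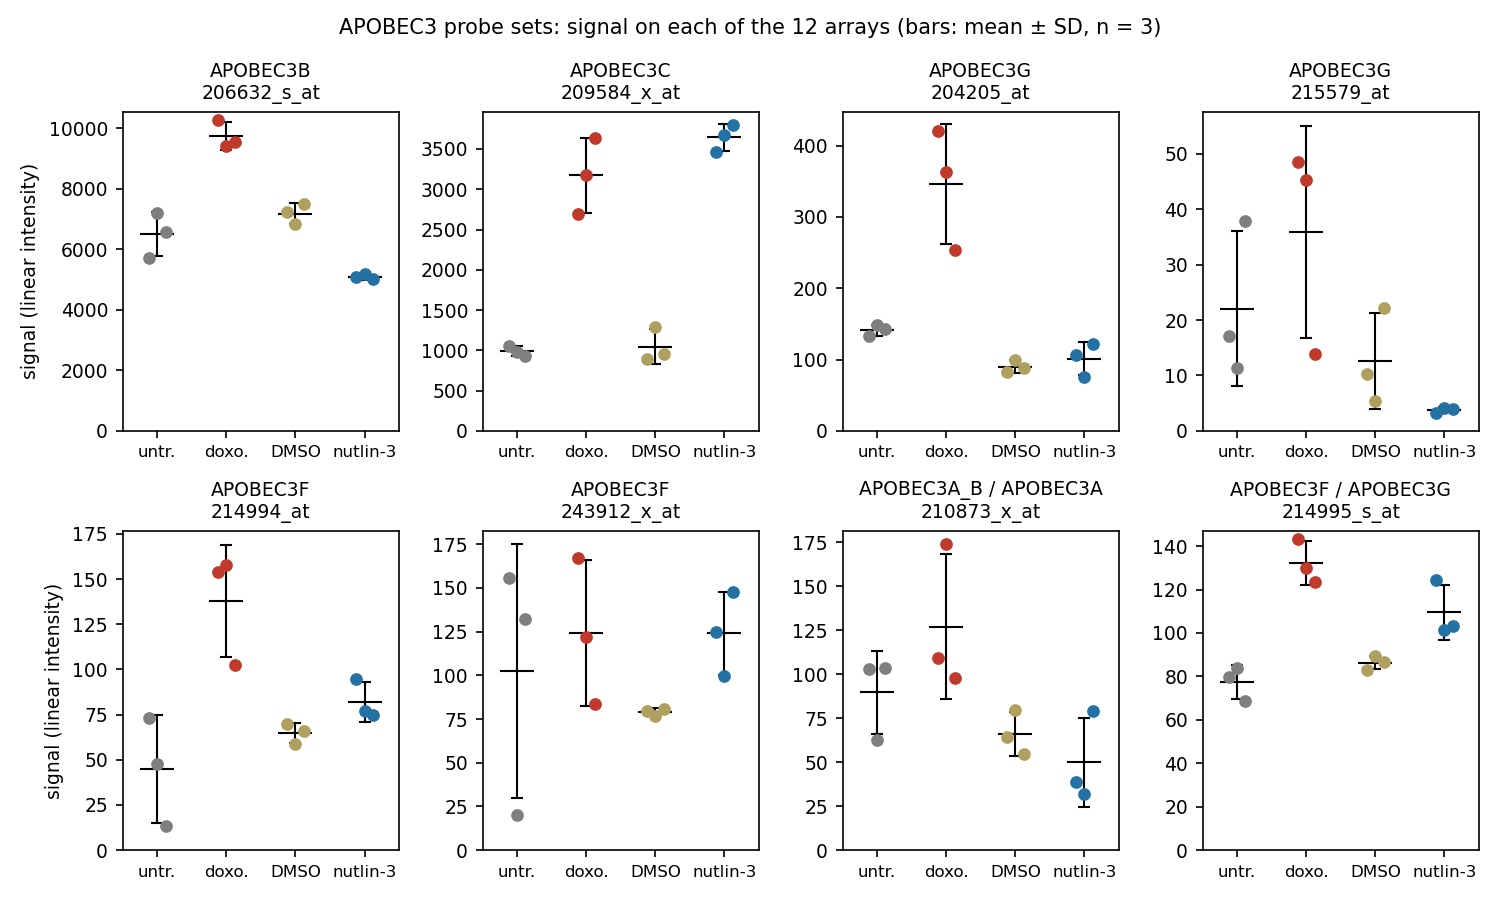
Linear signal of the 8 APOBEC3 probe sets on each of the 12 arrays, by group, with bars for the mean ± SD of 3 arrays and a vertical axis that starts at 0 in each panel. For APOBEC3C all treated arrays lie at or above 2697 and all control arrays at or below 1292, whereas for APOBEC3B the doxorubicin arrays are the highest and the nutlin-3 arrays the lowest.

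APOBEC3B moved in opposite directions with the agents. Its signal was 5728, 7185 and 6577 on the untreated arrays and 10288, 9413 and 9548 on the doxorubicin arrays. On the DMSO arrays it was 7220, 6822 and 7502, and on the nutlin-3 arrays 5081, 5187 and 5006. Every doxorubicin array lay above, and every nutlin-3 array below, all 6 control arrays, while the untreated and DMSO arrays overlapped. The group means were 6497 ± 732 untreated, 9750 ± 471 with doxorubicin, 7181 ± 341 in DMSO and 5091 ± 90.9 with nutlin-3 (SD, n = 3). APOBEC3B thus rose with doxorubicin by 0.59 (SE 0.08, 95% interval 0.41 to 0.77, adjusted p = 1.4e-05), which is 1.50 times the untreated mean. With nutlin-3 it fell by 0.49 (SE 0.08, adjusted p = 0.00026), to 0.709 of the DMSO mean. Both responses stood clear of the spread between arrays but lay under 2-fold. The difference of the responses was 1.08 (SE 0.12, 95% interval 0.83 to 1.33, adjusted p = 2.5e-06), in a comparison in which 39.5% of genes were called. Of all genes tested, 304, or 2.22%, likewise rose with doxorubicin and fell with nutlin-3.

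APOBEC3C, a single-domain enzyme found in both nucleus and cytoplasm, rose with both agents, by more than 3 times in mean signal. Untreated arrays gave signals of 1054, 985 and 935, and doxorubicin arrays 2697, 3179 and 3637. DMSO arrays gave 896, 1292 and 954, and nutlin-3 arrays 3459, 3670 and 3801. The treated arrays lay far above all control arrays, the arrays of the 2 agents overlapped, and so did those of the 2 controls. The mean rose from 991 ± 59.9 to 3171 ± 470 with doxorubicin and from 1047 ± 214 to 3643 ± 172 with nutlin-3 (SD, n = 3), ratios of 3.20 and 3.48. The log2 changes were 1.65 (SE 0.13, adjusted p = 1.1e-08) and 1.80 (SE 0.13, adjusted p = 2e-08). Their difference of -0.15 was not called, and its 95% interval of -0.53 to 0.23 still allows a modest difference either way. Of the genes tested, 1128, or 8.25%, rose with both agents.

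APOBEC3G, the cytoplasmic enzyme that enters budding virions and is the classic target of the HIV protein Vif, rose with doxorubicin. Its representative probe set, 204205_at, gave signals of 133, 148 and 142 untreated and of 420, 363 and 254 with doxorubicin. In DMSO it gave 81.9, 99.9 and 88.1, and with nutlin-3 106, 75.7 and 122. All doxorubicin arrays lay above the rest, the DMSO and nutlin-3 arrays overlapped, and the untreated arrays lay above both of these groups. The means were 141 ± 7.75, 346 ± 84.2, 90.0 ± 9.12 and 101 ± 23.4 in that order (SD, n = 3). APOBEC3G rose with doxorubicin by 1.18 (SE 0.21, 95% interval 0.73 to 1.62, adjusted p = 0.00014), which is 2.45 times the untreated mean. With nutlin-3 the log2 change was 0.13 (SE 0.21, 95% interval -0.32 to 0.57, adjusted p = 0.72). The difference of the responses was 1.05 (SE 0.30, 95% interval 0.42 to 1.68, adjusted p = 0.0099). In every gene fit run it was called, with an adjusted p from 0.003 to 0.031. When all 54613 probe sets other than controls were fitted, its adjusted p was 0.031, and it exceeded 0.05 in fits that left out untreated array 1 (0.06) or 3 (0.053), doxorubicin array 1 (0.087) or 2 (0.065), DMSO array 2 (0.075) or 3 (0.055) or nutlin-3 array 2 (0.084).

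The other APOBEC3G probe set, 215579_at, was dim. It gave 17.1, 11.3 and 37.8 untreated, 48.5, 45.3 and 13.8 with doxorubicin, 10.3, 5.38 and 22.2 in DMSO, and 3.28, 4.19 and 4.02 with nutlin-3. Doxorubicin arrays overlapped the untreated ones, and the nutlin-3 arrays lay below all others. All group means were under 49.3, the 40th percentile of signal used as a filter for the gene fit, which the other 7 APOBEC3 probe sets passed. Neither its change with doxorubicin, 0.43 (adjusted p = 0.43), nor that with nutlin-3, -0.49 (adjusted p = 0.55), was called.

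APOBEC3F, another double-domain restriction factor sensitive to Vif, was read by a pair of probe sets that did not give the same result. On 214994_at the signal was 73.1, 47.8 and 13.5 untreated and 154, 158 and 102 with doxorubicin. It was 69.6, 58.6 and 65.9 in DMSO and 94.8, 77.0 and 74.7 with nutlin-3. Doxorubicin arrays were the highest, nutlin-3 arrays came next, and the control groups overlapped, with untreated array 3 the lowest. The mean went from 44.8 ± 29.9 to 138 ± 30.9 with doxorubicin (SD, n = 3), a rise of 1.46 (SE 0.35, 95% interval 0.71 to 2.21, adjusted p = 0.0047). With nutlin-3 it was 82.2 ± 10.98 against 64.7 ± 5.58, and the log2 change of 0.28 was not called (adjusted p = 0.78).

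The brighter APOBEC3F probe set, 243912_x_at, represents the gene in the gene fit. It gave 155, 19.9 and 132 untreated and 167, 122 and 83.6 with doxorubicin. DMSO arrays gave 79.6, 76.6 and 80.7, and nutlin-3 arrays 125, 99.8 and 147. Untreated array 2 lay far below the other 2 of its group, whose range otherwise overlapped that of doxorubicin, while every nutlin-3 array lay above every DMSO array. The log2 changes were 0.49 (SE 0.43, adjusted p = 0.35) and 0.55 (SE 0.43, adjusted p = 0.4), and neither was called. Without untreated array 2 the doxorubicin change of this probe set was -0.23. The doxorubicin change of the gene was called where 214994_at stood for it (1.46, adjusted p = 0.0014) or where its probe sets were averaged (0.97, adjusted p = 0.011). Its response therefore depended on the probe set read.

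**Figure D2:**
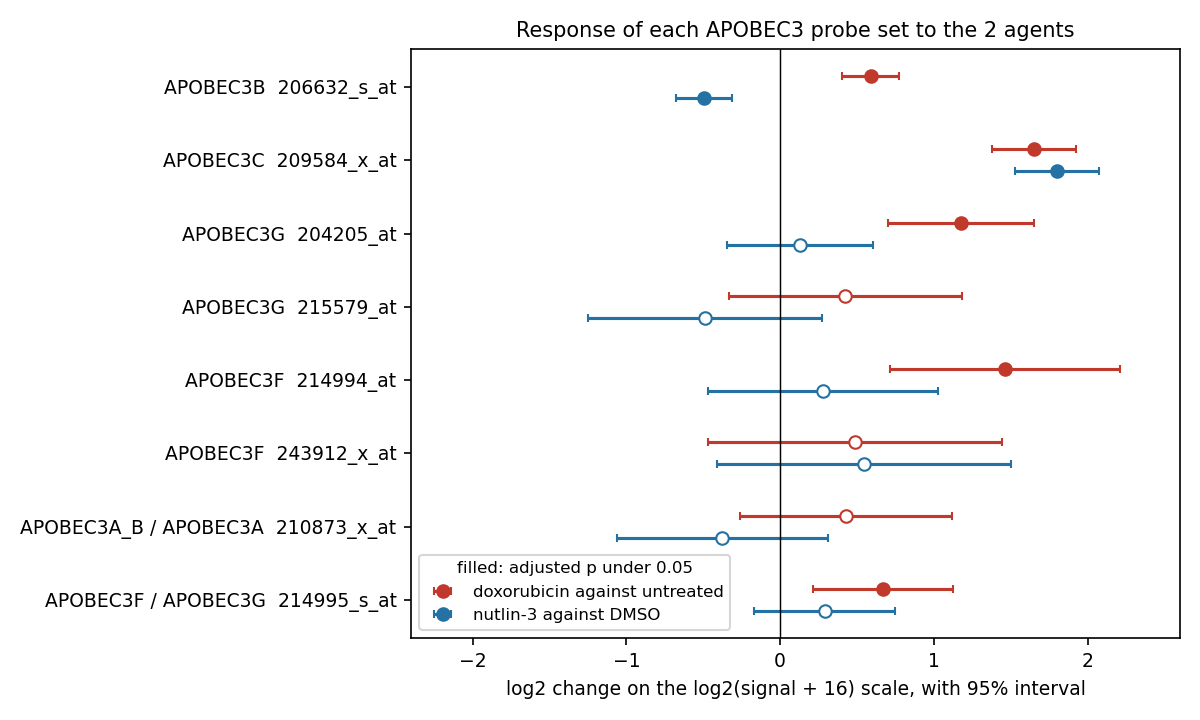
Log2 change of each APOBEC3 probe set with doxorubicin and with nutlin-3, on the log2(signal + 16) scale, with 95% intervals from limma. Filled markers have an adjusted p under 0.05 over all probe sets. APOBEC3C is filled at 1.65 and 1.80, and APOBEC3B is filled on both sides of 0, at 0.59 and -0.49.

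The probe sets paired with several genes can be assigned to no single gene. On 214995_s_at, paired with APOBEC3F and APOBEC3G, signals were 79.5, 84.0 and 68.6 untreated and 143, 130 and 124 with doxorubicin. They were 83.1, 89.3 and 86.6 in DMSO and 124, 101 and 103 with nutlin-3. Both treated groups lay above both control groups. The doxorubicin change was 0.67 (SE 0.21, adjusted p = 0.028), and the nutlin-3 change was 0.29 (adjusted p = 0.55). The doxorubicin call was lost with arrays centred on their medians (adjusted p = 0.11), with quantile normalization (0.081), with only the 6 arrays of the comparison (0.097), with doxorubicin array 1 as the only doxorubicin array (0.093) and in fits without untreated array 1 (0.051) or 3 (0.082) or doxorubicin array 1 (0.08) or 2 (0.053).

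For APOBEC3A, the tumour-associated single-domain enzyme mostly studied in myeloid cells, only 210873_x_at was read, paired also with the fusion gene APOBEC3A_B. Signals were 103, 62.5 and 103 untreated, 109, 174 and 98.1 with doxorubicin, 64.4, 79.5 and 54.7 in DMSO and 39.0, 31.7 and 78.97 with nutlin-3. The doxorubicin and untreated arrays overlapped, as did the nutlin-3 and DMSO arrays. Neither change was called (0.43, adjusted p = 0.37, and -0.37, adjusted p = 0.63).

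Among the 6 probe sets paired with 1 gene, 4 rose with doxorubicin, where 29.2% of all probe sets were called and 15.6% rose. With nutlin-3, 1 rose (209584_x_at, APOBEC3C) and 1 fell (206632_s_at, APOBEC3B), where 9.44% of all were called. The difference of the responses was called for 2 of them, against 16.8% of all. The solvent was measured too. For DMSO against untreated cells, limma called 0 of the 4 member genes and 0 of the 6 probe sets, where 14.1% of genes and 6.36% of probe sets were called. At an unadjusted p under 0.05 there was 1 of each, APOBEC3G and its probe set 204205_at, with a log2 change of -0.57 (SE 0.21, adjusted p = 0.082 in the gene fit).

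**Figure D3:**
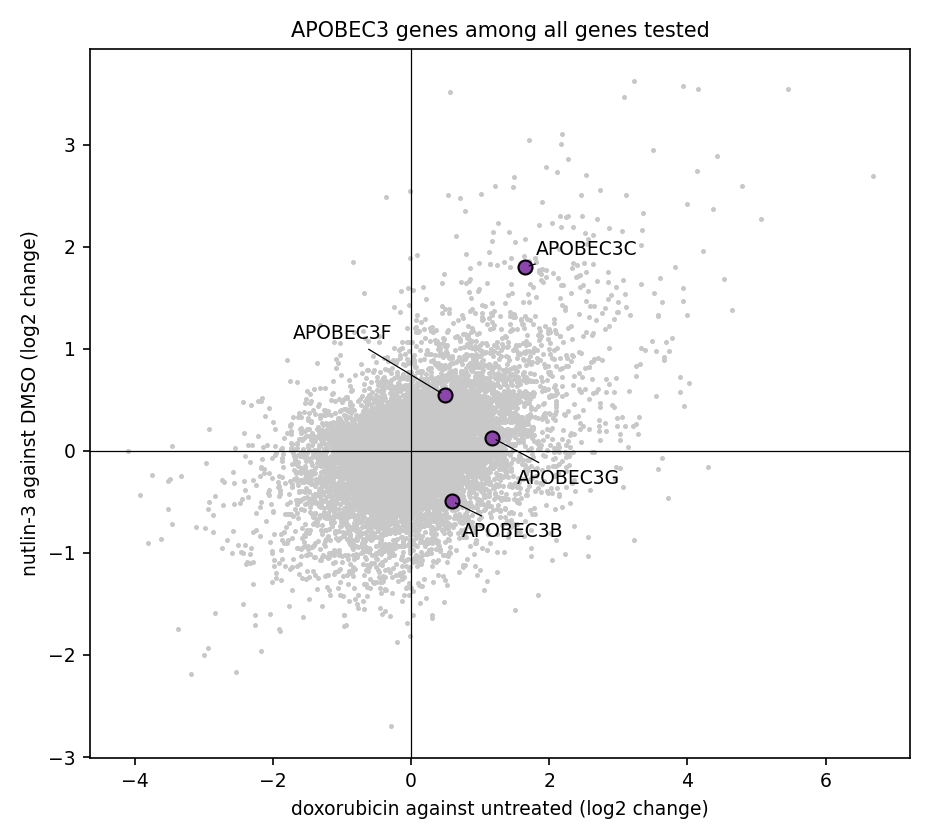
Log2 change with nutlin-3 (vertical) against log2 change with doxorubicin (horizontal) for the genes tested, on the log2(signal + 16) scale, with the 4 APOBEC3 genes marked. APOBEC3C lies high on both axes (1.65, 1.80), APOBEC3G to the right near 0 (1.18, 0.13), and APOBEC3B to the right and below 0 (0.59, -0.49).

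Both agents acted on known p53 targets, since CDKN1A, the gene of the CDK inhibitor p21, rose by 2.47 with doxorubicin and by 2.30 with nutlin-3, and MDM2 by 1.42 and 2.14. Arrays of a group correlated across genes at 0.9798 to 0.9905, and arrays of different groups at 0.9062 to 0.9798. For ACTB, the ratio of 3' to 5' probe set signal, a sign of RNA quality or amplification, was 3.12 ± 0.577 (SD, n = 3) on the doxorubicin arrays and 1.53 ± 0.0754 or less in the other groups. The spiked control dap, which is not cell RNA, also had a higher ratio there, 5.79 ± 2.54 against 2.71 ± 0.279 untreated. For GAPDH the ratio was 1.07 ± 0.116 with doxorubicin and 1.02 ± 0.0356 untreated. Doxorubicin array 1 had the lowest ACTB ratio of its group. With it as the only doxorubicin array kept, the doxorubicin changes were 0.67 for APOBEC3B, 1.43 for APOBEC3C and 1.47 for APOBEC3G. This fit assumes that the lone array varies like the other groups, and that array still had ratios of 2.48 for ACTB and 3.47 for dap, above every untreated array (at most 1.58 and 2.92). The part of RNA quality in the doxorubicin results was not tested. Centring arrays on their medians shifted the median change of all genes from 0.08 to -0.10 with doxorubicin and lowered the share of its calls that were rises from 54.0% to 38.4%. That shift moved no member across the call in the gene fit.

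Of the osteoblast lineage markers, 4 of the 8 with a probe set were at or above the filter (COL1A1, SPARC, RUNX2 and SPP1), and ALPL, SP7, COL1A2 and IBSP were below it. With doxorubicin RUNX2 and SPP1 fell and COL1A1 rose by 0.26, the latter lost without untreated array 2 or doxorubicin array 1 or 2. With averaged probe sets the COL1A1 change was -0.16. The summed signal of the list was 48536 to 55682 untreated, 55951 to 62374 with doxorubicin, 49794 to 57340 in DMSO and 53665 to 58248 with nutlin-3. Leukocytes express much of the family, and 9 of the 14 leukocyte markers with a probe set were at or above the filter. Their summed signal was 967 to 1135 untreated, 1646 to 1895 with doxorubicin, 773 to 891 in DMSO and 1041 to 1304 with nutlin-3. PTPRC, which encodes the pan-leukocyte antigen CD45, had mean signals of 50.6, 81.8, 42.8 and 34.2 in these groups, and the monocyte gene CD14 of 2.98, 7.51, 9.31 and 3.23. Of the 9, 2 rose with doxorubicin (CORO1A and LAPTM5) and 2 with nutlin-3 (CD3D and LAPTM5, the first lost without DMSO array 2 or nutlin-3 array 2). LAPTM5, a lysosomal membrane gene on that list, rose by 2.35 with doxorubicin and by 1.84 with nutlin-3. Its mean signals were 85.1 untreated, 509 with doxorubicin, 60.8 in DMSO and 258 with nutlin-3. LAPTM5 alone thus carried much of the shift in the summed leukocyte signal. MS4A1 and CSF1R, like PTPRC and CD14, had lower mean signals with nutlin-3 than in DMSO. The part of such cells in the APOBEC3 values was not tested. Of 5 epithelial markers, 3 fell with doxorubicin, and 2 rose and 1 fell with nutlin-3. Of these rises 1, KRT8, was lost without any 1 DMSO or nutlin-3 array. In DMSO against untreated cells 4 of the 5 fell. Their summed signal was 27720 to 29006 untreated, 19774 to 24642 with doxorubicin, 20529 to 21180 in DMSO and 26031 to 27501 with nutlin-3. Of the endothelial markers, summed at 190 to 451 over all arrays, limma called 0 of 2 with either agent, and 0 at an unadjusted p under 0.05.

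Along chromosome 22, genes beside the cluster were called in both directions. Of 13 neighbours tested, 3 rose and 4 fell with doxorubicin (median -0.06), and 1 rose and 3 fell with nutlin-3 (median -0.17). The genes directly next to the cluster, CBX6 and CBX7, did not rise with doxorubicin. Their changes were -0.04 (limma, adjusted p = 0.83) and -0.33 (adjusted p = 0.013). NPTXR, a neuronal pentraxin receptor beyond CBX6 on the APOBEC3A side, rose with doxorubicin by 1.28 and was not called with nutlin-3. PDGFB, a growth factor gene beyond APOBEC3H, rose by 1.07 with doxorubicin, and its nutlin-3 change of -0.53 was lost without any 1 DMSO array or nutlin-3 array 2 or 3. RPL3, a ribosomal protein gene, fell by 0.57 with doxorubicin, and SUN2, which encodes a nuclear envelope protein, fell by 0.92 with nutlin-3. Of the 4 doxorubicin falls, 1 was called in every fit that left out an array (RPL3), and the count was 1 without untreated array 1 and 2 without doxorubicin array 1 or nutlin-3 array 2. The nutlin-3 rise was RPL3, 0.30, and was lost without DMSO array 1, nutlin-3 array 1 or nutlin-3 array 3. APOBEC3D, which lies between APOBEC3C and APOBEC3F, was read by 1553831_at at 95.1 ± 26.5 untreated, 140 ± 51.1 with doxorubicin, 96.2 ± 23.1 in DMSO and 123 ± 12.04 with nutlin-3 (SD, n = 3). Its changes of 0.47 (adjusted p = 0.13) and 0.33 (adjusted p = 0.4) were not called, although the first was called without doxorubicin array 3.

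**Figure D4:**
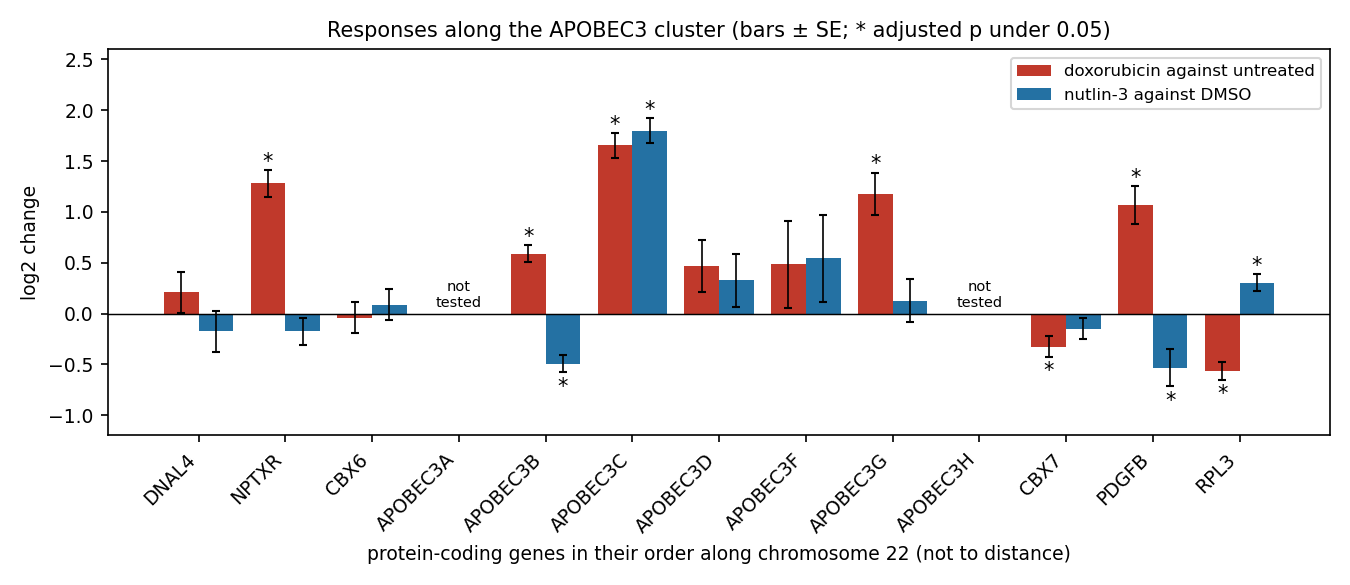
Log2 change with doxorubicin and with nutlin-3 for protein-coding genes in their order along chromosome 22, not drawn to distance, with SE bars and an asterisk for an adjusted p under 0.05. APOBEC3C has the tallest pair of bars (1.65 and 1.80). CBX6 and CBX7, directly next to the cluster, have doxorubicin bars below 0 (-0.04 and -0.33). NPTXR and PDGFB, which lie beyond them, have tall doxorubicin bars (1.28 and 1.07).

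Uracil left in DNA by a deaminase is excised by a glycosylase, and the resulting abasic site is cut and filled. Of 15 such repair genes tested, 5 rose (CCNO, FEN1, HMCES, LIG1, MBD4) and 5 fell (APEX1, DUT, LIG3, PARP1, UNG) with doxorubicin, with a median of 0.13. With nutlin-3, 6 fell (DUT, FEN1, LIG1, MBD4, PARP1, UNG), with a median of -0.15. The counts of this and every other gene list are to be read beside the shares of all genes tested. With doxorubicin 55.7% of all genes were called and 30.1% rose. With nutlin-3 26.4% of all genes were called, 12.5% rising and 13.9% falling. UNG, the main uracil glycosylase, fell with both agents, by 0.82 (SE 0.12) and by 1.02 (SE 0.12), while APOBEC3C rose with both. Its mean signal went from 2692 ± 488 to 1498 ± 53.8 with doxorubicin and from 2870 ± 37.6 to 1418 ± 180 with nutlin-3 (SD, n = 3). DUT, which keeps uracil nucleotides out of DNA, fell by 0.94 and by 0.59. APEX1, the main abasic endonuclease, fell by 0.66 with doxorubicin. FEN1, the flap endonuclease of repair and replication, went the way of APOBEC3B, rising by 0.91 with doxorubicin and falling by 1.01 with nutlin-3. MBD4, a mismatch glycosylase, rose by 0.67 with doxorubicin, and its nutlin-3 change of -0.28 was lost without DMSO array 2 or 3 or nutlin-3 array 2 or 3.

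Polymerases that copy past abasic sites were mixed. Of 8 translesion genes, 1 rose and 3 fell with doxorubicin, and 1 rose and 2 fell with nutlin-3, with medians of -0.17 and -0.03. POLH, the polymerase that bypasses ultraviolet lesions and a known p53 target, was the rise in both, by 1.18 and 0.93. POLI, POLK and PRIMPOL fell with doxorubicin. With nutlin-3 PRIMPOL fell by 0.43, and RAD18 (-0.42) was lost without DMSO array 1, DMSO array 2 or nutlin-3 array 1.

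Of 13 other antiviral restriction factors tested, 5 rose and 3 fell with doxorubicin (median 0.20, against 0.08 over all genes), and 5 rose and 2 fell with nutlin-3 (median 0.24, against 0.01). TRIM22, an interferon-inducible ubiquitin ligase and known p53 target, rose with both agents as APOBEC3C did, by 1.40 and 1.53. SERINC5, a membrane protein that lowers HIV infectivity, rose by 2.25 and 0.83, and TRIM5, which binds viral capsids, by 0.47 and 0.80. In DMSO against untreated cells TRIM5 was called as well, with a rise of 0.52. TRIM22 fell there by 0.36, called in 10 of 12 fits that left out an array. SAMHD1, which depletes nucleotides, fell by 0.96 with doxorubicin. MOV10, an RNA helicase bound to APOBEC3G, rose by 0.84 with doxorubicin, and its nutlin-3 change of -0.32 was lost without doxorubicin array 1, DMSO array 1 or 2 or nutlin-3 array 2 or 3.

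Several APOBEC3 genes are known to be induced by interferon or through NF-kB. Of 11 interferon response genes tested, 8 rose and 1 fell with doxorubicin (median 0.47), and 2 rose and 2 fell with nutlin-3 (median 0.13). With doxorubicin 55.7% of all genes tested were called and 30.1% rose, and the median over all genes was 0.08. Of the 8 rises, 5 were called in every fit that left out an array, and the count ranged from 6 to 8. IFNAR1, among the 8, gave -0.026 with averaged probe sets. ISG15, a ubiquitin-like modifier, rose by 2.74 and 0.43, and IRF1, a transcription factor, by 1.58 with doxorubicin. IFIT1, a sensor of viral RNA, fell by 1.82 and by 1.13. In DMSO against untreated cells ISG15 was called as well, with a rise of 0.50. With arrays centred on their medians 4 of these genes rose with doxorubicin, and without doxorubicin array 2 the falls were 2. Of 11 NF-kB subunits and kinases, 6 rose with doxorubicin (median 0.36), or 3 with centred arrays, and 2 rose and 1 fell with nutlin-3 (median 0.19). RELB, a subunit of the noncanonical pathway, rose by 1.98 and 1.09, and IKBKB, the canonical kinase, by 1.08 with doxorubicin. The nutlin-3 calls of single genes were lost when 1 array was left out: JAK1 without DMSO array 2, REL without DMSO array 1 or nutlin-3 array 3, and NFKB1 without DMSO array 1 or 2 or nutlin-3 array 1 or 3. That of OAS3 was lost in 9 of 12 such fits.

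RB and DREAM complexes, with repressor E2F proteins, repress cell cycle genes in arrested cells, and APOBEC3B has been described among their targets. The list of E2F, RB and DREAM-MuvB genes also holds activators, MYBL2 and FOXM1 among them. Of 20 such genes, 5 rose and 6 fell with doxorubicin (median -0.07), and 1 rose and 11 fell with nutlin-3 (median -0.41). The difference of the responses was positive for 11 called genes and negative for 1 (median 0.54, against 0.07 over all genes), or positive for 5 with arrays centred on their medians. Over all genes tested, 39.5% had a called difference. E2F7 was among the 11, and its difference was -0.013 with averaged probe sets. E2F8, a repressor E2F expressed in cycling cells, had mean signals of 1018 ± 119 untreated and 1256 ± 58.3 with doxorubicin, and of 1157 ± 44.5 in DMSO and 361 ± 27.1 with nutlin-3 (SD, n = 3). It fell with nutlin-3 by 1.64 (SE 0.10), and its rise of 0.31 with doxorubicin was lost without untreated array 1 or doxorubicin array 1. E2F2 and E2F1 fell by 1.61 and by 1.41 with nutlin-3 and were not called with doxorubicin. MYBL2 and FOXM1, which activate mitotic genes, fell by 1.34 and by 0.95 with nutlin-3, and by 0.59 and by 0.33 with doxorubicin. LIN37, a DREAM subunit, rose by 1.21 with doxorubicin, and E2F7, another repressor E2F, by 0.82.

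The Vif protein of HIV removes APOBEC3 proteins through a borrowed ligase of CBFB, cullin 5 and partners. Of 9 genes of that group, 5 rose and 2 fell with doxorubicin (median 0.44), and 2 rose and 1 fell with nutlin-3 (median 0.18), none of these nutlin-3 calls in every fit that left out an array. RUNX3, a partner of CBFB, rose by 1.48 with doxorubicin and ARIH2, a ligase that works with cullin 5, by 0.55, while CUL5 fell by 0.34. Of 8 ADAR-type deaminases and APOBEC1 cofactors, 2 rose and 2 fell with doxorubicin (median 0.04), or 1 rose without doxorubicin array 2, and 1 rose and 1 fell with nutlin-3 (median 0.01), lost when single arrays were left out. SYNCRIP, an RNA-binding cofactor, fell by 0.76 with doxorubicin and RBM47, another, by 0.73.

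The genes closest to each called member in course over the 12 arrays were found by the root mean square (RMS) difference of log2 profiles, each centred on its own mean. This is a description of likeness, and no test was made. The genes were picked for their profiles on these same arrays, so a direction shared with the member follows from the choice. For APOBEC3B, whose own profile had an RMS of 0.34, these were CENPQ (0.07), a centromere protein, RAB27A (0.09), a vesicle GTPase, RELL1 (0.09), DDIAS (0.10), an apoptosis suppressor induced by DNA damage, and MIS12 (0.10), a kinetochore subunit. All 5 rose with doxorubicin and fell with nutlin-3. For APOBEC3C, with an RMS of 0.88, they were PARD6G (0.14), a polarity protein, BLOC1S2 (0.19), SERTAD1 (0.19), a regulator of CDK4, ANXA4 (0.22), an annexin, and ACYP2 (0.22). All 5 rose with both agents, by 1.44 to 1.96 with doxorubicin and by 1.63 to 1.89 with nutlin-3. For APOBEC3G, with an RMS of 0.72, they were TFEB (0.17), a regulator of lysosomal genes, PARP10 (0.21), an ADP-ribosyltransferase, CAPN3 (0.22), a calpain, ADAM21 (0.23) and SGK1 (0.23), a kinase. All 5 rose with doxorubicin, by 1.00 to 1.34, and SGK1 alone of them was called with nutlin-3, at 0.52.

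**Figure D5:**
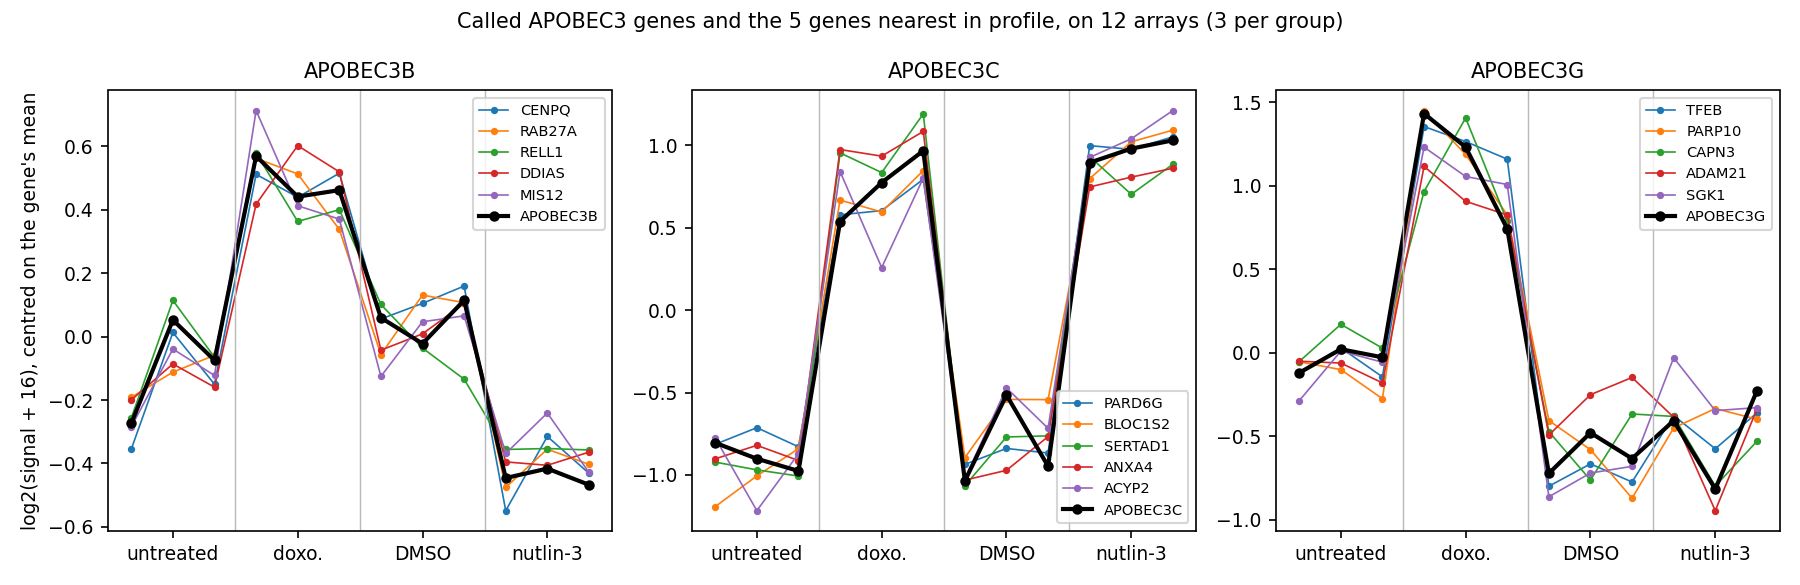
Log2(signal + 16), centred on each gene's mean, on the 12 arrays for APOBEC3B, APOBEC3C and APOBEC3G and for the 5 genes nearest to each in profile. Lines only join the points of 1 gene, since arrays within a group have no order. The 3 members differ in which of the 4 groups stands apart: APOBEC3C is high with both agents, APOBEC3G with doxorubicin, and APOBEC3B is high with doxorubicin and low with nutlin-3.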

How the data were processed

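Signal intensity per probe set was measured on 12 arrays of U2OS cells, from total RNA that had been amplified by in vitro transcription from its 3' end, per the labels' protocols. The deposited table holds 1 linear intensity per probe set and array, made by the authors with MAS5 (per the submitters' processing notes). Its settings are not given in the sources used here. Arrays share a trimmed mean (500.06 to 500.07 after trimming 2% at each end), and medians lay between 79.4 and 113.4. No 2 arrays held identical values. Detection calls were not used here, and the number of arrays limits the precision.

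Values were taken as log2(value + 16) with the authors' scaling kept. The platform annotation paired 41091 probe sets with 1 symbol and 1801 with several, and did not list 11777. Current symbols came from RefSeq's genes of GRCh38.p14, joined on gene identifier, which matched 13657 of 13673 genes tested. The array table names no genome build, so only gene order is taken from RefSeq. Genes were represented by their brightest single-gene probe set at or above the 40th percentile. A fit of 4 group means over 12 arrays with limma 3.58.1 in R 4.3.3 (lmFit, eBayes with trend) gave the contrasts, for the genes and, separately, for the 54613 probe sets other than controls without a filter. Calls had a Benjamini-Hochberg adjusted p under 0.05. The code was also run on simulated data with independent noise and few changed genes, all in the doxorubicin group. Many more genes were called in the real data, so that run checks the code and not these calls.

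The members, the 14 gene lists and the rules were chosen with earlier results of these data known. The rule named every member, CDKN1A and MDM2, up to 2 called genes per direction, list and comparison with the largest change, and the 5 genes nearest in profile to each called member. Not every gene it took is printed. Other list genes named were chosen after their values were seen. Alternatives covered scaling, pseudocounts of 1 and 64, filters, choice of probe set, stricter calls, each array left out, a block for replicate number, no trend, array weights and fits of 6 arrays only. Keeping only doxorubicin array 1 was chosen after seeing the data.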

Additional observations from a re-analysis of the deposited data

Results flagged for a closer look

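Both results here were picked out because the test of the difference between the agents' responses was itself called. For APOBEC3B the doxorubicin response exceeded the nutlin-3 response by 1.08 on the log2 scale (SE 0.12, limma, adjusted p = 2.5e-06). For APOBEC3G it did so by 1.05 (SE 0.30, adjusted p = 0.0099). The difference compares each agent with its own control, and DMSO arrays had lower APOBEC3G signals than untreated arrays.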

How the results depend on the processing

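The 420 alternative values of the member genes kept direction and side of the threshold in 397 cases. APOBEC3B, APOBEC3C and APOBEC3G kept their calls in every gene fit run, except that the doxorubicin and nutlin-3 changes of APOBEC3B do not reach 2-fold, and APOBEC3F and APOBEC3G drop out under a 60th percentile filter. Asking for 2-fold left 1 member gene and 1 member probe set called with nutlin-3, and the 60th percentile filter left 1 gene with a called difference. The count of probe sets with a called difference was 1 with centred arrays and at an adjusted p under 0.01, and 1 to 2 when an array was left out. Of 18 same-numbered pairs, 2 had correlated deviations over 0.1 (range -0.0886 to 0.172), and both were of arrays numbered 1. Differently numbered pairs were not compared, so whether replicate numbers pair the arrays was not tested. A block for replicate number raised the share of all genes called from 55.7% to 57.2% with doxorubicin and from 26.4% to 28.5% with nutlin-3. For the difference it went from 39.5% to 41.6%, and for DMSO from 14.1% to 16.7%. With that block the member gene counts stayed at 3, 2, 2 and 0 and the member probe set counts at 4, 2, 2 and 0. No member call changed (APOBEC3G difference, limma, adjusted p = 0.015).

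No value whose sign turned was called under the setting named, but some of them were called in the main fit. The cause was not tested. For APOBEC3F (243912_x_at) the doxorubicin change was -0.23 without untreated array 2 (range -0.23 to 0.90 when an array was left out). Its difference was 0.040 with pseudocount 1, 0.13 (gene fit) and 0.062 (probe set fit) with array weights, 0.56 with averaged probe sets, 1.18 without _x_at and _s_at probe sets, and 0.37 with doxorubicin array 1 alone. It was 0.35, 0.25, 0.17 and 0.060 without untreated array 1, untreated array 3, doxorubicin array 3 and nutlin-3 array 3 (lowest -0.78). Its DMSO change was 0.085 with quantile normalization, 0.092 with centring, 0.077 with pseudocount 1, 0.10 and 0.042 with array weights, 0.26 with averaged probe sets and 0.55 without _x_at and _s_at ones, and 0.38 and 0.27 without untreated arrays 1 and 3 (lowest -0.75). The DMSO change of APOBEC3C was -0.10 without DMSO array 2 (highest 0.16 without DMSO array 1). With averaged probe sets, COL1A1 gave -0.16 and IFNAR1 -0.026 with doxorubicin, E2F7 -0.013 for the difference and MDM2 -0.085 for DMSO. In the main fit all of these were called, at 0.26, 0.47, 0.50 and 0.33 in that order. CAPN3 gave 0.047 and 0.078 with nutlin-3 without DMSO array 3 or nutlin-3 array 2 (lowest -0.15), and ADARB1 -0.055 for DMSO without _x_at and _s_at probe sets. In the main fit the DMSO change of ADARB1 was called, at 0.49 (limma, adjusted p = 0.049). Of 2996 alternative list counts, 413 moved by over 1.5 times. With 3 arrays per group and dim signals, APOBEC3A, APOBEC3D and APOBEC3F changes have wide intervals.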

Other observations

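APOBEC1 and APOBEC4, which belong to the wider deaminase family, were each read by a probe set of their own. APOBEC4 had mean signals of 38.7 ± 5.27 untreated, 80.1 ± 21.4 with doxorubicin, 24.6 ± 13.7 in DMSO and 37.6 ± 16.6 with nutlin-3 (SD, n = 3). APOBEC1, the intestinal enzyme that edits apolipoprotein B mRNA, had 9.94 ± 5.06 untreated and 33.9 ± 23.4 with doxorubicin, 34.1 ± 17.4 in DMSO and 32.4 ± 9.83 with nutlin-3. Both were under the filter on mean level over the 12 arrays, and limma called neither of them with either agent when all probe sets were fitted (APOBEC4 with doxorubicin, 0.80, adjusted p = 0.1).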
